A study of Mus musculus with 14 samples.

Results

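The lysyl oxidases and the collagen hydroxylases are the enzymes that modify and crosslink collagen, and 10 of their genes were followed here by name. They were the 5 lysyl oxidase genes Lox, Loxl1, Loxl2, Loxl3 and Loxl4, the 3 lysyl hydroxylase genes Plod1, Plod2 and Plod3, and the 2 prolyl 4-hydroxylase genes P4ha1 and P4ha2. All 10 were found by symbol among the 27179 genes of the keratinocyte count table and among the 24411 genes of the epidermis count table. The study sequenced mRNA from newborn mice of 2 genotypes that share floxed alleles of Trp63 exon 13 (Trp63-Ex13fl/fl). The p63beta mice also carried KRT14-Cre, which acts in cells that use the KRT14 promoter, so that the alpha ending of p63 is lost there, and the p63alpha mice carried no Cre and kept it. Primary proliferating keratinocytes, plated in low calcium medium, gave 3 p63beta and 3 p63alpha libraries, and epidermis separated from dermis by trypsin gave 4 p63beta and 4 p63alpha libraries. Whether each library came from its own animal is not stated, and a p-value here therefore covers only library-to-library spread, which may be technical.

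Collagen chains are modified in the endoplasmic reticulum before they fold. Prolyl 4-hydroxylases, whose catalytic alpha subunits are made by genes such as P4ha1 and P4ha2, add the hydroxyl groups that keep the triple helix stable at body temperature, and lysyl hydroxylases prepare lysines for sugar attachment and for crosslinks. Outside the cell, lysyl oxidases, which are copper enzymes, oxidise lysines and hydroxylysines of collagen and elastin to the aldehydes that form crosslinks. In skin, the collagens of the dermis come mainly from fibroblasts, whereas keratinocytes make basement membrane and anchoring collagens such as types IV, VII and XVII. P4ha1, P4ha2, Plod2 and Lox are known targets of the hypoxia-inducible factor HIF-1 in other cells.

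Library totals were 25455374 to 29229809 read pairs in p63beta and 20688027 to 30066041 in p63alpha keratinocytes. They were 23280242 to 44909629 estimated reads in p63beta and 21290068 to 34144606 in p63alpha epidermis. Levels are given in CPM, the reads of a gene scaled to a common library total. As a check of the epidermis labels, the Trp63 transcript NM_011641 was listed at 0 TPM in every p63beta library and at 37.5 to 107 TPM in p63alpha libraries. Total Trp63 stood at 363 ± 16.3 CPM in p63beta and 183 ± 5.61 CPM in p63alpha keratinocytes (SD, n = 3 each). It stood at 630 ± 128 CPM in p63beta and 455 ± 193 CPM in p63alpha epidermis (SD, n = 4 each), where the groups overlapped. These totals do not show which ending of p63 is made, so they do not check the keratinocyte labels. The 8 keratinocyte markers summed to 24835 to 32299 CPM in p63beta and 24536 to 37220 CPM in p63alpha keratinocytes, and to 105627 to 138198 CPM in p63beta and 100399 to 149635 CPM in p63alpha epidermis. Some libraries stood apart. In keratinocytes, p63beta 3 held heart muscle transcripts, with a summed marker level of 3201 CPM against 70.6 to 172 CPM in the other 5 libraries. Library p63alpha 3 held liver and stomach transcripts, with 157 CPM and 140 CPM for 8 markers of each against at most 2.79 CPM and 1.90 CPM elsewhere in keratinocytes; these last 2 lists were chosen after values were seen. In epidermis, EP12 and KO2 of the p63beta group and WT3 of the p63alpha group held the most transcript of a 20-gene hypoxia response list. The keratinocyte values of the members and the list medians are given with and without p63beta 3, and the epidermis list medians with and without EP12, KO2 and WT3. Lox, Loxl1 and Loxl3 are also given without p63alpha 3, their highest library.

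In keratinocytes no member passed the test between genotypes, and the prolyl 4-hydroxylase gene P4ha1 came nearest. The quasi-likelihood test of edgeR, adjusted over all genes, called 0 of the 10 members at an adjusted p under 0.05, beside 14 of all 13820 genes tested, which is 0.101%. In this fit P4ha1 was the only member with an unadjusted p under 0.05, and it was the only one whose genotypes did not overlap. In a fit blocked by replicate number, the unadjusted p was 0.00124 for P4ha1, 0.00724 for Plod2 and 0.00915 for Plod3, and none of the 10 passed after adjustment. P4ha1, P4ha2, Plod2 and Plod3 were higher in p63beta in all 3 same-numbered pairs, and Loxl4 was lower in all 3. The share of all genes that kept 1 direction in all 3 pairs is not given here, so no result is read from this. Groups that did not overlap, with p63beta higher, were found for 1 of 10 members and for 6.47% of all genes tested. The whole-table count of 14 fell to 3, 2 and 1 without p63beta 1, 2 and 3 and to 4, 1 and 1 without p63alpha 1, 2 and 3, with no member called in any of these fits.

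P4ha1 encodes the most widely used catalytic subunit of collagen prolyl 4-hydroxylase. It lies on chromosome 10 at chr10:59323296-59373304 on the plus strand (GRCm38). Its level was 76.0, 73.5 and 74.6 CPM in p63beta keratinocytes 1, 2 and 3, against 51.6, 36.4 and 44.2 CPM in p63alpha keratinocytes 1, 2 and 3. Every p63beta library was above every p63alpha library, and the p63beta libraries lay closer together. The means were 74.7 ± 1.26 CPM for p63beta and 44.1 ± 7.60 CPM for p63alpha (SD, n = 3 each), which is 1.70-fold higher in p63beta or 0.76 ± 0.14 on the log2 scale (SE). The adjusted p in edgeR was 0.248, and the unadjusted p was 0.0012, rank 68 of 13820. Without p63beta 3 the log2 fold change was 0.74 ± 0.16 with an adjusted p of 0.843.

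The call for P4ha1 depended on the tool. With the replicate number as a block, which called 37 genes or 0.268% of those tested, the log2 fold change of P4ha1 was 0.78 and its adjusted p 0.109. DESeq2 run here gave a log2 fold change of 0.75 and an adjusted p of 3.71e-04 for P4ha1, the only member it called. This fit called 216 genes in all, against 14 in edgeR. In the authors' deposited table, made with DESeq2, P4ha1 had a shrunken log2 fold change of 0.66 and an adjusted p of 3.91e-04. It was likewise the only member under 0.05, beside 1.5% of all genes with an adjusted p there. Loxl1 was given no adjusted p in either DESeq2 result. Of 14 alternative fits, 1 called P4ha1, and all 14 gave a log2 fold change between 0.64 and 0.89.

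P4ha2, the second catalytic subunit, lies on chromosome 11 at chr11:54100095-54131665 on the plus strand. Its level was 40.2, 34.1 and 34.8 CPM in p63beta keratinocytes, against 34.2, 30.7 and 32.3 CPM in p63alpha keratinocytes. The groups overlapped by a narrow margin, since p63alpha 1 was just above p63beta 2. Its log2 fold change was 0.17 ± 0.09 with an adjusted p of 0.819, and without p63beta 3 it was 0.17 with an adjusted p of 0.999.

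Levels can be compared between genes only per length, in FPKM. The 2 subunit genes together reached 35.95, 32.7 and 33.3 FPKM in p63beta keratinocytes and 27.4, 22.1 and 24.7 FPKM in p63alpha keratinocytes. P4ha1 made up 52.3% to 55.5% of this sum in p63beta libraries and 40.7% to 46.6% in p63alpha libraries. P4ha1 was thus the larger part in each p63beta library and the smaller part in each p63alpha library, a description that rests on the same counts as its fold change.

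The promoters of both subunit genes are shown because in epidermis both were high in the libraries with high hypoxia response transcripts. They are the 300 bases around the start that the RefSeq table of GRCm38.p6 gives for the gene, at chr10:59323046-59323345 for P4ha1 and chr11:54100674-54100973 for P4ha2, both on the plus strand. For P4ha2 the RefSeq start lies downstream of the start of the GENCODE gene given above, so that this window falls inside the GENCODE gene. Capitals mark the core of a hypoxia response element, searched as ACGTG or GCGTG on either strand, so also as CACGT or CACGC.
P4ha1: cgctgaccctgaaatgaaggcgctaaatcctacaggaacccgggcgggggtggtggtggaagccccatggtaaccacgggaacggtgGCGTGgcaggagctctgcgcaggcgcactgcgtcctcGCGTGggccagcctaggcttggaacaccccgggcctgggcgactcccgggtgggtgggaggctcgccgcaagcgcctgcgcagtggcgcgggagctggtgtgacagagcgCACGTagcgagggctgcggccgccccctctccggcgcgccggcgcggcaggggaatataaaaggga
P4ha2: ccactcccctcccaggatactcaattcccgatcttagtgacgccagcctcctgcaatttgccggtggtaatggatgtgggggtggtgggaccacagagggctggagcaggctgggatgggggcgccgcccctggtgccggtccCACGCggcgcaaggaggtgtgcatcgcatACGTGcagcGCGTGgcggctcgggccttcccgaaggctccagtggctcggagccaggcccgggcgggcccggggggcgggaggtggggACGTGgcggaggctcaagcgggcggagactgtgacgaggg
The P4ha1 window held 3 matches and the P4ha2 window held 4, none overlapping another. Of 32851 promoters of this length, 43.77% held at least 1 match, 20.55% at least 2, 8.809% at least 3 and 3.738% at least 4, where a CACGTG counts on both strands. Promoters of 5 members were matched, and Plod3 held 4 matches, Plod1 held 2 and Loxl4 held 1. In epidermis Plod3 was highest in EP10, at 34.7 CPM, and lowest in WT3, at 12.9 CPM. The promoters counted were not matched for base content, and a match says only that the letters are present.

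**Figure D1:**
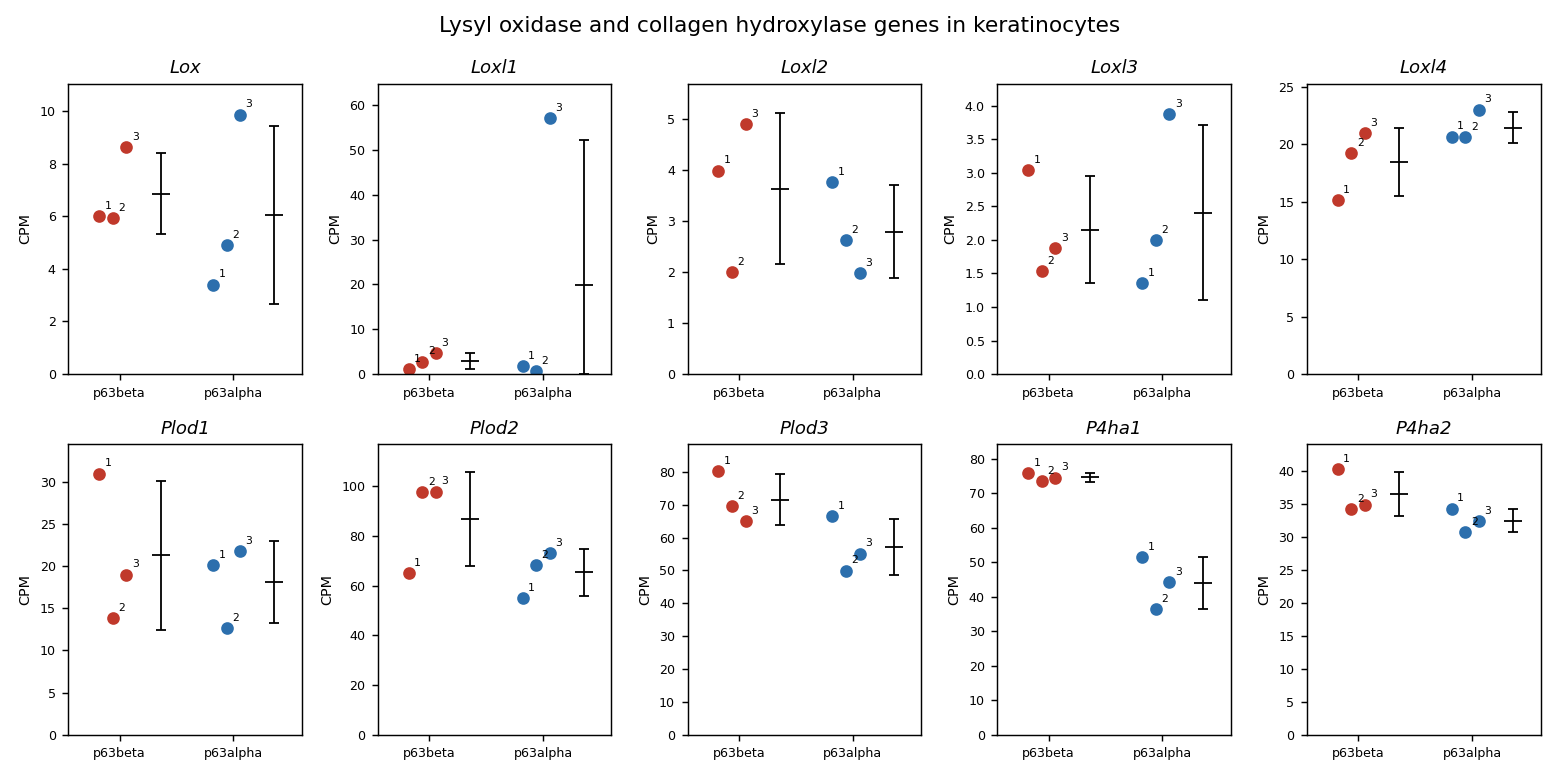
Level of each of the 10 genes in keratinocytes in CPM on the vertical axis, by genotype on the horizontal axis. Each point is 1 library with its number, p63beta in red and p63alpha in blue, and the bar is the mean with its SD, cut at 0 where the SD is larger than the mean. The P4ha1 points of p63beta lie between 73.5 and 76.0 CPM, above all p63alpha points, and for Loxl1 p63alpha 3 stands alone at 57.1 CPM.

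Among the lysyl hydroxylases, Plod2 and Plod3 had positive fold changes in keratinocytes that did not pass the test. Plod2 hydroxylates lysines in the telopeptides of collagen, the ends that enter crosslinks. Its level was 65.0, 97.5 and 97.8 CPM in p63beta keratinocytes, against 54.9, 68.2 and 73.2 CPM in p63alpha keratinocytes. Only p63beta 1 lay within the p63alpha range. Its log2 fold change was 0.42 ± 0.20 with an adjusted p of 0.763, and 0.30 with an adjusted p of 0.999 without p63beta 3. With the replicate block the log2 fold change was 0.40 and the adjusted p 0.207.

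Plod3 makes an enzyme that also carries glycosyltransferase activity, adding sugars to hydroxylysine. It measured 80.2, 69.5 and 64.9 CPM in p63beta keratinocytes and 66.5, 50.0 and 55.1 CPM in p63alpha keratinocytes. The overlap came from p63alpha 1, which was above p63beta 3. The log2 fold change was 0.32 ± 0.13 with an adjusted p of 0.728, and 0.37 with an adjusted p of 0.999 without p63beta 3.

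Plod1, which mainly modifies lysines in the helix, varied as much within as between genotypes. It stood at 30.9, 13.8 and 19.0 CPM in p63beta keratinocytes, against 20.1, 12.6 and 21.8 CPM in p63alpha keratinocytes, and its log2 fold change was 0.23 ± 0.33 with an adjusted p of 0.966. Without p63beta 1, the highest library, the log2 fold change was -0.12, and without p63beta 3 it was 0.27. Together the 3 genes reached 51.5, 51.7 and 52.0 FPKM in p63beta keratinocytes and 41.3, 37.5 and 43.2 FPKM in p63alpha keratinocytes. These sums did not overlap although each single gene did. They were not tested between genotypes or set beside sums of other genes.

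The lysyl oxidases were the lowest class, in summed FPKM, in all keratinocyte libraries but p63alpha 3, and none passed the test. Loxl4 was the lysyl oxidase with the most reads in all libraries but p63alpha 3. It had 15.1, 19.2 and 20.9 CPM in p63beta keratinocytes and 20.7, 20.7 and 23.01 CPM in p63alpha keratinocytes. Only p63beta 3 reached into the p63alpha range. The log2 fold change was -0.21 ± 0.15 with an adjusted p of 0.898, and without p63beta 3 it was -0.34 with an adjusted p of 0.999.

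Loxl1, which acts on elastin, was set by 1 library. Its level was 1.20, 2.79 and 4.65 CPM in p63beta keratinocytes, against 1.72, 0.732 and 57.1 CPM in p63alpha keratinocytes. Library p63alpha 3 held 1182 of its reads, where the other 5 libraries held 22 to 136. The log2 fold change was -2.74 ± 1.597 with an adjusted p of 0.838, -3.31 without p63beta 3, and turned positive, to 1.25 with an adjusted p of 0.991, without p63alpha 3. The same library carried the liver and stomach transcripts, with Alb at 104 CPM, Gkn1 at 46.6 CPM, Gkn2 at 38.4 CPM and Tff1 at 28.0 CPM, against at most 1.83 CPM for any of these 4 genes in the other libraries. Their part in the Loxl1 level was not tested.

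Lox, the founding lysyl oxidase, had 6.01, 5.93 and 8.62 CPM in p63beta keratinocytes and 3.40, 4.89 and 9.86 CPM in p63alpha keratinocytes. In both genotypes library 3 was highest. These 2 libraries also held the highest sums of the 8 fibroblast markers. The sums were 46.9, 91.7 and 219 CPM in p63beta keratinocytes and 37.7, 46.0 and 167 CPM in p63alpha keratinocytes. In p63alpha 3 most of the sum was Col1a1, at 134 CPM, while Dcn was at 1.69 CPM. In p63beta 3 Col1a1 was at 74.6 CPM and Dcn at 50.5 CPM. The part of fibroblasts in the Lox level was not tested. The log2 fold change of Lox was 0.20 ± 0.41 with an adjusted p of 0.973, and -0.03 with an adjusted p of 0.999 without p63beta 3. Without p63alpha 3 the log2 fold change was 0.72 with an adjusted p of 0.991. In these bulk libraries, fewer cells of a type and less RNA per cell cannot be told apart.

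Loxl2 and Loxl3, relatives of Lox that carry scavenger receptor domains, had the lowest mean FPKM of the members in keratinocytes. Loxl2 had 3.99, 2.004 and 4.89 CPM in p63beta keratinocytes and 3.77, 2.63 and 1.98 CPM in p63alpha keratinocytes, with a log2 fold change of 0.38 ± 0.42 and an adjusted p of 0.947. Loxl3 had 3.04, 1.53 and 1.88 CPM in p63beta keratinocytes and 1.35, 1.996 and 3.87 CPM in p63alpha keratinocytes, with a log2 fold change of -0.15 ± 0.47 and an adjusted p of 0.983. The ranges of the 2 genotypes overlapped widely for both genes. Without p63beta 3, Loxl2 was at 0.07 and Loxl3 at -0.10, each with an adjusted p of 0.999. Loxl3 turned positive, to 0.34 with an adjusted p of 0.998, without p63alpha 3, its highest library.

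Ordered by mean FPKM over the 6 keratinocyte libraries, Plod2 (20.5), Plod3 (19.6), P4ha1 (14.7) and P4ha2 (14.7) came first and their ranges overlapped from each to the next. Plod1 (6.06) followed below the whole range of P4ha2. Then came Loxl4 (3.67), Loxl1 (3.41), Lox (1.79), Loxl2 (0.620) and Loxl3 (0.563), each overlapping the next. Of the summed lysyl oxidase FPKM, Loxl4 held 42.6% to 52.2% in p63beta keratinocytes and 16.6% to 60.2% in p63alpha keratinocytes, and Lox held 24.3% to 26.4% in p63beta keratinocytes and 10.8% to 21.3% in p63alpha keratinocytes. In p63alpha 3, Loxl1 took 67.3% of the sum.

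In epidermis no member passed the test either. The lysyl oxidase genes Loxl1 and Loxl4 had too few reads to pass the filter on low counts, and edgeR called 0 of the 8 tested members, beside 32 of 13796 genes or 0.232%. None of the 8 had an unadjusted p under 0.05, and DESeq2 and limma called none. All 10 genes overlapped between genotypes, whereas 2.93% of all tested genes had groups without overlap in either direction. In the authors' deposited table for epidermis, 0.896% of genes had an adjusted p under 0.05 and none of the 10 members did. Leaving out single libraries moved the whole-table count to between 10 and 28, with 16 without EP10, 18 without EP11, 18 without KO2, 10 without EP07 and 19 without EP08, and no member was called in any of these fits.

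**Figure D2:**
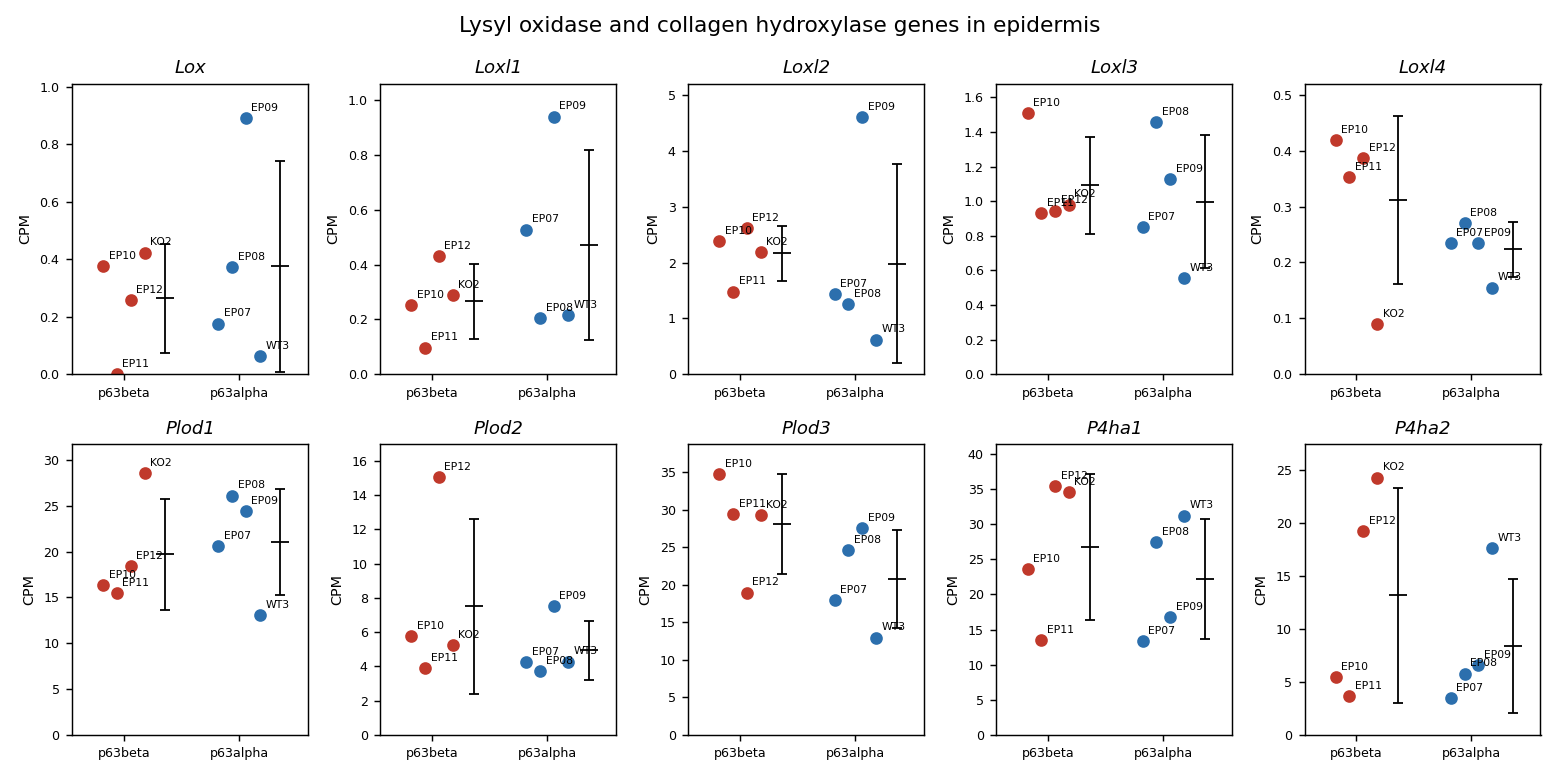
Level of each of the 10 genes in epidermis in CPM on the vertical axis, by genotype on the horizontal axis. Each point is 1 library with its name, p63beta in red and p63alpha in blue, and the bar is the mean with its SD. The groups overlap for every gene, and P4ha2 is highest in KO2 (24.3 CPM), EP12 (19.3 CPM) and WT3 (17.7 CPM).

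Plod3 had the lowest unadjusted p of the members in epidermis. Its level was 34.7, 29.4, 18.9 and 29.3 CPM in the p63beta libraries EP10, EP11, EP12 and KO2, against 17.95, 24.6, 27.5 and 12.9 CPM in the p63alpha libraries EP07, EP08, EP09 and WT3. EP12 was the only p63beta library within the p63alpha range. The means were 28.1 ± 6.60 CPM for p63beta and 20.7 ± 6.55 CPM for p63alpha (SD, n = 4 each), and the log2 fold change was 0.52 ± 0.24 with an unadjusted p of 0.0565 and an adjusted p of 0.9999.

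P4ha1 and P4ha2 varied more between libraries than between genotypes. P4ha1 had 23.6, 13.5, 35.4 and 34.5 CPM in p63beta EP10, EP11, EP12 and KO2, against 13.3, 27.4, 16.8 and 31.2 CPM in p63alpha EP07, EP08, EP09 and WT3, with a log2 fold change of 0.33 ± 0.38. P4ha2 had 5.49, 3.66, 19.3 and 24.3 CPM in the same p63beta libraries, against 3.49, 5.79, 6.62 and 17.7 CPM in the same p63alpha libraries, with a log2 fold change of 0.71 ± 0.70. For both genes the 3 highest libraries were EP12, KO2 and WT3, which are of both genotypes. P4ha2 in these 3 was at least 17.7 CPM, and at most 6.62 CPM in the other 5.

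The hypoxia response list was highest in the same 3 libraries. Its 20 genes summed to 2882, 2558, 5492 and 5763 CPM in p63beta EP10, EP11, EP12 and KO2, and to 2228, 2815, 2805 and 5174 CPM in p63alpha EP07, EP08, EP09 and WT3. Egln3, an oxygen sensor that HIF-1 itself induces, stood at 940, 394 and 436 CPM in EP12, KO2 and WT3, against 94.3 to 128 CPM in the others. The basal keratin Krt14 was also lowest in EP12 at 1756 CPM and in WT3 at 1690 CPM, but not in KO2, at 7157 CPM. Without these 3 libraries, p63beta EP10 and EP11 and p63alpha EP07, EP08 and EP09 remained. Over these 5 the log2 fold change was -0.013 for P4ha1, -0.16 for P4ha2 and -0.039 for Plod2, an analysis chosen after values were seen. The libraries left out were picked for high hypoxia response transcript, and EP12 and KO2 are p63beta. Lower fold changes of genes high in them therefore follow in part from the choice. KO2 and WT3 also carry a column-name prefix that EP12 and the other epidermis libraries do not. For KO2 and WT3, a difference tied to the prefix cannot be told apart from one tied to the hypoxia response. What sets EP12, KO2 and WT3 apart was not tested.

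**Figure D3:**
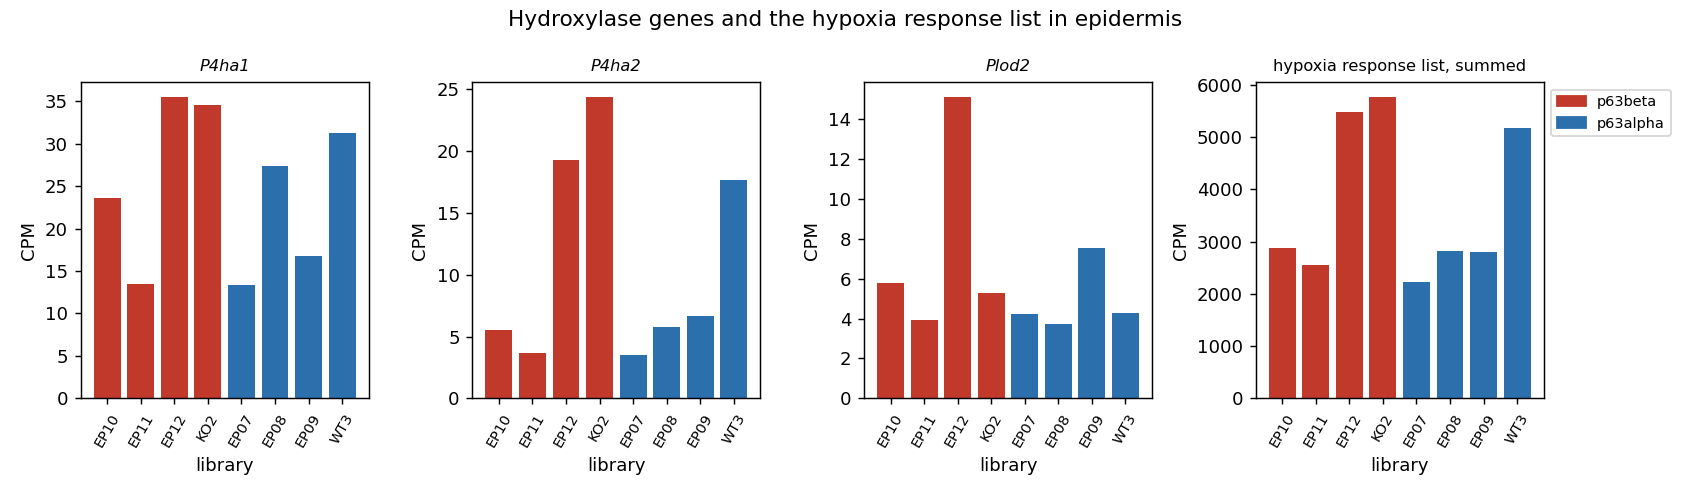
CPM of P4ha1, P4ha2 and Plod2 and the summed CPM of the hypoxia response list on the vertical axes, for each of the 8 epidermis libraries on the horizontal axes, p63beta in red and p63alpha in blue. EP12, KO2 and WT3 are the 3 highest libraries for P4ha1, for P4ha2 and for the list, and Plod2 is highest in EP12.

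Plod2 had 5.78, 3.92, 15.1 and 5.25 CPM in p63beta EP10, EP11, EP12 and KO2, against 4.25, 3.72, 7.52 and 4.27 CPM in p63alpha EP07, EP08, EP09 and WT3. EP12 was far above the rest. Its log2 fold change was 0.67 ± 0.42, and 0.10 without EP12. Plod1 had 16.3, 15.5, 18.4 and 28.6 CPM in the same p63beta libraries and 20.6, 26.1, 24.4 and 13.03 CPM in the same p63alpha libraries, with the 2 extremes, KO2 and WT3, in the 2 libraries whose column names carry another prefix than those of the other 6. Over these 6 libraries alone, the log2 fold change of Plod1 was -0.44, against 0.00 ± 0.27 over all 8. With the prefix as a term in the fit, it was -0.048 for Plod1, 0.54 for Plod3, 0.66 for Plod2, 0.35 for P4ha1 and 0.82 for P4ha2.

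The lysyl oxidases were the lowest class in epidermis, and Lox, Loxl1 and Loxl4 had few reads. Loxl2 had 2.39, 1.48, 2.62 and 2.18 CPM in p63beta EP10, EP11, EP12 and KO2, against 1.44, 1.25, 4.60 and 0.619 CPM in p63alpha EP07, EP08, EP09 and WT3, and a log2 fold change of 0.26 ± 0.53. Loxl3 had 1.51, 0.932, 0.945 and 0.980 CPM in the same p63beta libraries and 0.849, 1.46, 1.13 and 0.557 CPM in the same p63alpha libraries, and a log2 fold change of 0.20 ± 0.39. Neither gene separated the genotypes.

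Lox had 9, 0, 6 and 19 estimated reads in p63beta EP10, EP11, EP12 and KO2, and 6, 11, 19 and 2 in p63alpha EP07, EP08, EP09 and WT3. The count of 0 in EP11 allows up to 0.0964 CPM, taking 3 counts as the limit and counting error only. Loxl1 ranged from 0.0964 to 0.430 CPM in p63beta and from 0.203 to 0.939 CPM in p63alpha libraries, and Loxl4 ranged from 0.0891 to 0.419 CPM in p63beta and from 0.155 to 0.271 CPM in p63alpha libraries. For Lox, Loxl1 and Loxl2 the highest library was EP09, which also held the highest sum of the 8 fibroblast markers. The sums were 75.2 to 151 CPM in p63beta and 104 to 200 CPM in p63alpha libraries. EP09 was at 200 CPM, EP07 at 182 CPM and EP08 at 172 CPM. Dcn went the other way, at 102 CPM in EP09, 142 CPM in EP07 and 152 CPM in EP08. Col3a1 was at 46.1 CPM in EP09, 16.1 CPM in EP07 and 4.74 CPM in EP08. The part of fibroblasts in these lysyl oxidase levels was not tested.

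Per length, the order in epidermis was Plod3 (12.4 TPM), Plod1 (10.4), P4ha1 (9.86), P4ha2 (7.85) and Plod2 (2.80), each overlapping the next over the 8 libraries. Loxl2 (0.653 TPM) followed below the whole range of Plod2, and then Loxl3 (0.426), Loxl1 (0.184), Lox (0.114) and Loxl4 (0.0808). Loxl4, the first lysyl oxidase of keratinocytes by mean level, was thus the last in epidermis, and Loxl2 held 42.9% to 50.5% of the lysyl oxidase sum in p63beta and 30.2% to 52.8% in p63alpha epidermis. Plod2, first in keratinocytes, was the lowest hydroxylase in epidermis. The 2 systems were counted with different tools, so these orders are set side by side without a test.

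Whether the genotype effect differed between the systems was tested with an interaction term over all 14 libraries and 14659 genes. The edgeR test called 0 genes, which is 0%, while 618 had an unadjusted p under 0.05, and no member was among those 618. The largest difference among members, epidermis minus keratinocytes on the log2 scale, was that of Loxl1, at 2.04 ± 1.64 with an adjusted p of 0.99997. That value rested on p63alpha 3, the library that sets Loxl1 in keratinocytes, and it was -1.92 with an adjusted p of 0.9999 without it, an analysis chosen after values were seen. P4ha1 gave -0.42 ± 0.51, Plod2 0.26 ± 0.53 and P4ha2 0.56 ± 0.91, each difference smaller than its SE.

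**Figure D4:**
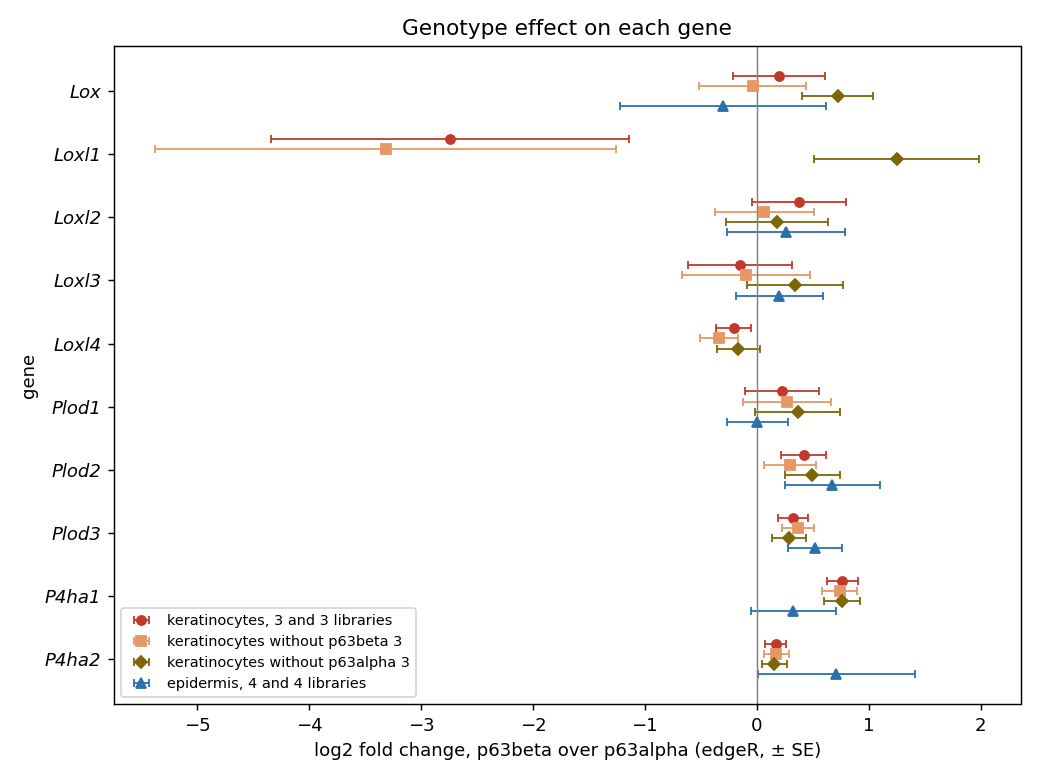
Log2 fold change of p63beta over p63alpha on the horizontal axis for each gene on the vertical axis, from edgeR, with bars for the SE. P4ha1 lies near 0.76 in all 3 keratinocyte fits, while Loxl1 is at -2.74 over all libraries and at 1.25 without p63alpha 3. Loxl1 and Loxl4 were not tested in epidermis.

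Transcript values were used for epidermis. Lox, Loxl4, Plod2 and P4ha2 have more than 1 transcript there, and only Plod2 and P4ha2 of these reach a mean of 1 TPM. Plod2 and P4ha2 each have 2 coding transcripts that differ by whole exons, and these exons are shown because the share of each transcript rests on them. Exon letters are in capitals, with 20 bases of the neighbouring exons in lower case, all on the plus strand of GRCm38 as annotated in GENCODE. The Plod2 transcript NM_001142916 has an extra 63-base coding exon at chr9:92601985-92602047, and in human cells the form with the corresponding exon is the one known for telopeptide crosslinks. The P4ha2 transcript NM_011031 carries a 66-base exon at chr11:54126346-54126411 in the place where NM_001136076 carries a 60-base exon at chr11:54126238-54126297.
Plod2 NM_001142916: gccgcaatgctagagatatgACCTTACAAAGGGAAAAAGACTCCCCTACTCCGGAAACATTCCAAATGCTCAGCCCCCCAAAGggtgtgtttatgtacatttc
P4ha2 NM_011031: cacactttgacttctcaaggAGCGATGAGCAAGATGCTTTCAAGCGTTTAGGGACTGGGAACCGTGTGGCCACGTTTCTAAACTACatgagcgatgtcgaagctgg
P4ha2 NM_001136076: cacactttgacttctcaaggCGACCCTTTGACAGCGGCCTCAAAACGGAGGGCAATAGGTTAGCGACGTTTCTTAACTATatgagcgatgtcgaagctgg

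The transcript of Plod2 with the extra exon made up 65.0%, 74.5%, 25.5% and 16.9% of Plod2 TPM in p63beta EP10, EP11, EP12 and KO2, against 42.7%, 18.9%, 0% and 5.14% in p63alpha EP07, EP08, EP09 and WT3. EP10 and EP11 were the only libraries with more than 50% and the rest overlapped. The means were 45.5 ± 28.5% for p63beta and 16.7 ± 19.1% for p63alpha (SD, n = 4 each), with a two-sided exact permutation p of 0.2 and an adjusted p of 1. These shares rest on few reads, 40.4 to 91.3 estimated counts of this transcript in p63beta and 0 to 62.6 in p63alpha libraries. For P4ha2, NM_011031 made up 57.9 ± 25.4% in p63beta and 38.6 ± 30.1% in p63alpha epidermis (SD, n = 4 each), with an exact permutation p of 0.371 and an adjusted p of 1. The smallest p that the 70 splits of 8 libraries allow is 0.0286, and none of 9980 transcript shares was called, which is 0%, with 172 at an unadjusted p under 0.05. Most of the 9980 shares would have to reach that smallest p before any could be called. The adjusted p-values and the lack of calls therefore cannot decide whether transcript use differed.

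The other genes of collagen modification and crosslinking were described from 7 lists, in which no gene was called in either system. The log2 fold change was above 0 for 7 of the 10 members in keratinocytes, at a median of 0.21, beside 6865 of 13820 genes and a median of -0.0013 over all genes. Without p63beta 3 the members' median was 0.12 with 6 positive. In epidermis 7 of the 8 tested members were positive with a median of 0.29, beside 6802 of 13796 genes and a median of -0.0039, and without EP12, KO2 and WT3 the members' median was -0.10 with 2 positive. These counts were not tested as a set.

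Among other enzymes of prolyl and lysyl modification, 7 of 11 tested genes were positive in keratinocytes with a median of 0.03, and 8 of 10 in epidermis with a median of 0.24. The keratinocyte median was 0.09 without p63beta 3, and without EP12, KO2 and WT3 the epidermis median was 0.19. Crtap, a partner of prolyl 3-hydroxylase, had the lowest unadjusted p of the list in both systems. It averaged 56.9 ± 4.57 CPM in p63beta and 44.1 ± 2.26 CPM in p63alpha keratinocytes (SD, n = 3 each), with a log2 fold change of 0.37 and an adjusted p of 0.381. It averaged 58.4 ± 6.84 CPM in p63beta and 39.9 ± 4.81 CPM in p63alpha epidermis (SD, n = 4 each), with a log2 fold change of 0.60 and an adjusted p of 0.446. Its groups did not overlap in either system, with p63beta higher. Of all tested genes, 6.47% did so in keratinocytes, and 2.93% had no overlap in either direction in epidermis. P4ha3, a further prolyl 4-hydroxylase subunit, was at 0.268 CPM in p63beta and 0.515 CPM in p63alpha keratinocytes. Its groups did not overlap there either, with p63beta lower, beside 790 of all 13820 genes. P3h2, a prolyl 3-hydroxylase, had a log2 fold change of -0.56 in epidermis with an unadjusted p of 0.123.

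Genes of collagen folding, secretion and propeptide processing were positive for 8 of 12 in keratinocytes with a median of 0.24, and for 7 of 11 in epidermis with a median of 0.22. Without p63beta 3 the keratinocyte median was 0.03 with 7 positive, and without EP12, KO2 and WT3 the epidermis median was 0.11 with 6 positive. Bmp1, which cleaves procollagen and also activates Lox, had a log2 fold change of 0.62 and an adjusted p of 0.534 in keratinocytes, and the collagen chaperone gene Serpinh1 had 0.21 and 0.701. In epidermis the procollagen protease gene Adamts14 had 0.53 with an adjusted p of 0.677, and Pcolce2, an enhancer of procollagen processing, had 1.15 with an adjusted p of 0.890.

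Of 4 other crosslinking genes, 4 were positive in keratinocytes with a median of 0.58, which was 0.12 with 3 positive without p63beta 3, and 3 of 3 tested in epidermis with a median of 0.71, or 0.37 without EP12, KO2 and WT3. The transglutaminase gene Tgm2 had a log2 fold change of 1.01 in keratinocytes, -0.14 without p63beta 3, and 1.13 in epidermis with an adjusted p of 0.862. Pxdn, a peroxidase that crosslinks collagen IV, had 0.28 in keratinocytes with an unadjusted p of 0.229. Qsox1, a sulfhydryl oxidase, had 0.71 in epidermis with an adjusted p of 0.684.

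Copper and ascorbate supply and lysyl oxidase scaffolds were positive for 7 of 8 genes in keratinocytes with a median of 0.07, and for 6 of 9 in epidermis with a median of 0.14. Without p63beta 3 the keratinocyte median was 0.01 with 5 positive, and without EP12, KO2 and WT3 the epidermis median was 0.12. The elastic fibre gene Fbln5 had log2 fold changes of 1.26 in keratinocytes, with an adjusted p of 0.648, which was 0.96 without p63beta 3, and 1.42 in epidermis, where its unadjusted p was 0.0375. The ascorbate transporter gene Slc23a2 had 0.23 in keratinocytes, and Fn1, the fibronectin gene, had -0.52 in epidermis.

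Substrate genes, collagens with Eln and Fbn1, were positive for 10 of 11 in keratinocytes with a median of 0.44, which was 0.31 with 8 positive without p63beta 3, and for 6 of 11 in epidermis with a median of 0.02. Without EP12, KO2 and WT3 the epidermis median turned to -0.33 with 4 positive. The basement membrane collagens Col4a1 and Col4a2 both had a log2 fold change of 0.44 in keratinocytes, with adjusted p of 0.566 and 0.628, and had 0.36 and 0.35 without p63beta 3. In epidermis Col1a2 had -0.91 and Fbn1 had -0.70, with unadjusted p of 0.0465 and 0.116. The series title names extracellular matrix genes in keratinocytes, so these lists are not independent evidence of direction.

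The hypoxia response list was positive for 18 of 20 genes in keratinocytes with a median of 0.23, which was 0.20 with 15 positive without p63beta 3. Its groups did not overlap, with p63beta higher, for 7 genes, beside 6.47% of all genes. Slc2a1, a glucose transporter gene, had 300, 254 and 266 CPM in p63beta keratinocytes and 196, 203 and 204 CPM in p63alpha keratinocytes, with a log2 fold change of 0.45 and an adjusted p of 0.245. Pfkl, a glycolytic enzyme gene, had 0.44 and 0.449. In epidermis 16 of 19 were positive with a median of 0.34, and without EP12, KO2 and WT3 the median was -0.15 with 8 positive. Those libraries were left out because they were highest for this same list, so the lower median follows in part from the choice. With all epidermis libraries, Adm, a peptide hormone gene, had a log2 fold change of 0.91 and Hif1a had -0.22, with unadjusted p of 0.0864 and 0.107.

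The TGF-beta response list was positive for 6 of 10 genes in keratinocytes with a median of 0.18, and for 6 of 9 in epidermis with a median of 0.10, or -0.03 without EP12, KO2 and WT3. The keratinocyte median was 0.13 without p63beta 3. Smad7, an inhibitor of the pathway, had a log2 fold change of 0.39 and an adjusted p of 0.517 in keratinocytes, and Ctgf had -0.37 and 0.730. In epidermis Thbs1 had a log2 fold change of 0.58 with an unadjusted p of 0.0832.

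**Figure D5:**
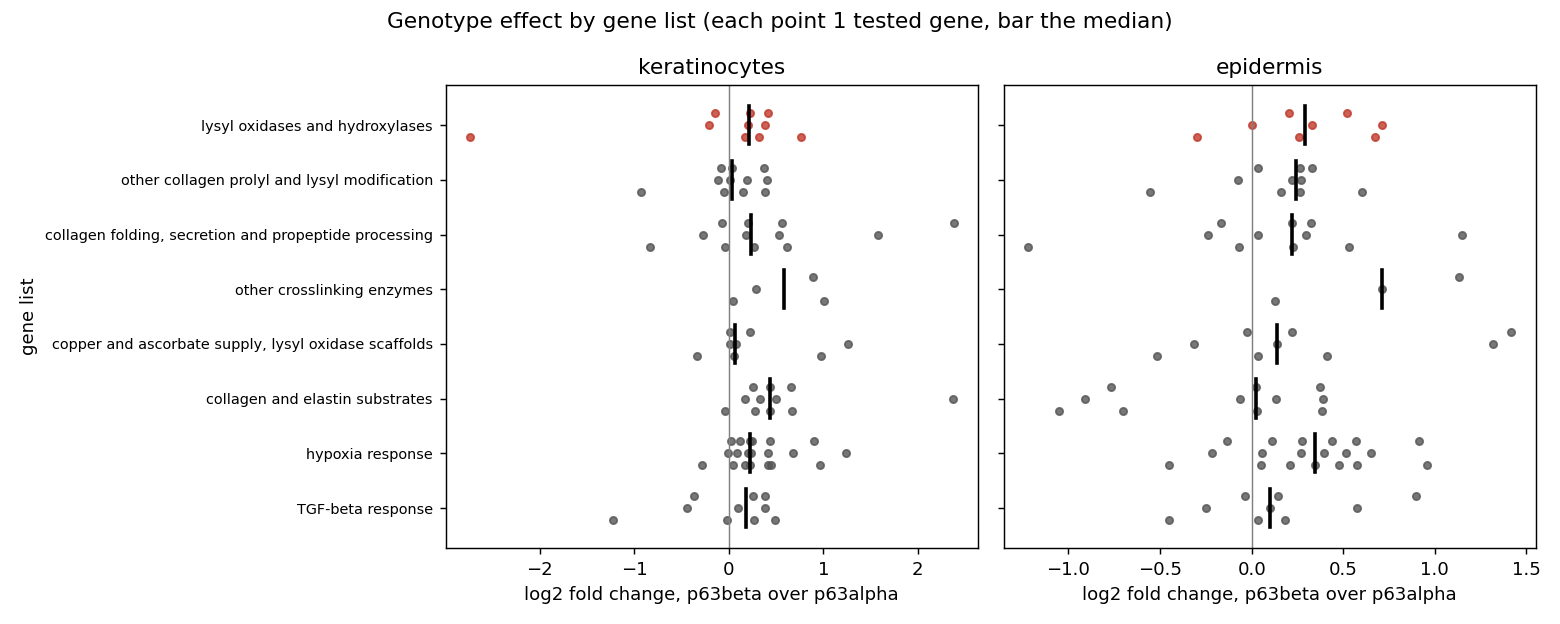
Log2 fold change of p63beta over p63alpha on the horizontal axis, for each gene list on the vertical axis, keratinocytes on the left and epidermis on the right. Each point is 1 tested gene, the members in red, and each bar is the median of the list; the members' medians are 0.21 and 0.29 and those of the hypoxia response list 0.23 and 0.34.

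The genes nearest to P4ha1 over the 6 keratinocyte libraries, by root mean square difference of centred log2 CPM among 13819 other tested genes, were Nrip2 (0.058), Pcyt1b (0.072) and Cfap69 (0.076). Those nearest to Plod3 over the 8 epidermis libraries, among 13795 genes, were Capns1 (0.132), Rapgef3 (0.134) and St3gal2 (0.142).

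Markers of other cell types are given as levels only, in summed CPM over each list. Melanocyte markers, led by Tyrp1 in keratinocytes and Dct in epidermis, summed to 779 to 975 CPM in p63beta and 419 to 1605 CPM in p63alpha keratinocytes, and to 303 to 430 CPM in p63beta and 104 to 265 CPM in p63alpha epidermis, where the groups did not overlap. Myeloid and Langerhans markers summed to 8.09 to 70.5 CPM in p63beta and 12.9 to 81.2 CPM in p63alpha keratinocytes, and to 28.5 to 121 CPM in p63beta and 66.3 to 117 CPM in p63alpha epidermis. Endothelial markers were at 11.5 to 35.5 CPM in p63beta and 4.96 to 10.7 CPM in p63alpha keratinocytes, and at most 1.83 CPM in epidermis. Smooth muscle and pericyte markers were at 37.3 to 209 CPM in p63beta and 25.6 to 35.96 CPM in p63alpha keratinocytes, with p63beta 3 highest, and at 12.4 to 18.9 CPM in p63beta and 12.9 to 28.1 CPM in p63alpha epidermis. The part of these cell types in the members' levels was not tested.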

How the data were processed

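Keratinocyte counts, deposited by the authors for RefSeq genes of mm10, were made per the file headers with featureCounts 1.5.2 at strand setting 2 and a minimum overlap of 25 bases, and FPKM of the same libraries were deposited too. For epidermis the authors deposited expected counts and TPM per gene and per transcript, estimated with Salmon per the submitters' processing notes. The authors' deposited DESeq2 tables hold, for each gene, a fold change on the log2 scale with its adjusted p-value, and their 14 per-library columns were not used. The epidermis column is named WT_vs_KO but its values run KO over WT. Versions of Salmon and of the authors' DESeq2 are not given in the sources used here. Epidermis columns named KO and WT were read as p63beta and p63alpha, because the header of the keratinocyte counts ties those words to these genotypes.

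The members, the lists and the rules were chosen with earlier results of these data known. Keratinocyte identifiers were paired with symbols through the authors' table. Of the keratinocyte table, 1 blank row was left out. The quasi-likelihood F test of edgeR 4.0.16 under R 4.3.3 was fitted within each system (TMM, filterByExpr by group, robust) on counts or rounded expected counts, with Benjamini-Hochberg adjustment over all genes tested and calls at an adjusted p under 0.05. CPM were computed from the library total of each count table. All fold changes are p63beta over p63alpha, and SE are from the fit. The interaction was fitted on 23203 genes joined by Entrez identifier through RefSeq accessions, of which 14659 passed the filter. Transcript shares were compared in genes with a mean of at least 1 TPM by a two-sided exact permutation test. Alternatives were DESeq2 1.42.0, limma 3.58.1 on log2 values with a pseudocount of 1 or 0.1, RLE size factors, no filter, leaving out libraries, a replicate block and the column-name prefix.

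In keratinocytes, same-numbered libraries deviated together from their group means, with correlations of 0.554, 0.469 and 0.129 over 13820 genes, and differently numbered libraries of the 2 genotypes had -0.50 to 0.159, a range that holds the value of pair 3. Every pair was above 0.1, but no label states that the numbers pair the samples. The main fit therefore had no block, and its p-values and SE take no account of a pairing. The replicate number was a block only in an alternative fit. On simulated counts for keratinocytes (13648 genes), 41 of 100 genes changed by 2-fold and 88 of 100 changed by 4-fold were recovered, with 5 unchanged genes called. For epidermis (13630 genes) these were 38, 95 and 8. The changed genes were drawn only from those with a mean above 5 CPM. These counts therefore say nothing of lower members such as Loxl2 and Loxl3. The simulated libraries were independent, with no shared deviation of same-numbered libraries and no library holding transcripts of another tissue. Recovery in the real libraries may differ from these counts. Named genes were every member, the 2 genes of lowest p in each pathway list and system, called list genes, the highest marker of a list and markers beside a member, the 3 genes nearest to the member of lowest p in each system, and Trp63. One gene that this rule names is not reported here. The non-overlapping or library-dependent genes Egln3, Krt14, Alb, Gkn2 and Tff1 were named after their values were seen.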

Additional observations from a re-analysis of the deposited data

Results flagged for a closer look

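In 3 epidermis groups of 4, 1 library stood far from the others of its genotype by Dixon's criterion, which chance meets in about 1 of 20 groups. For Plod2, EP12 had 15.1 CPM where the next p63beta library had 5.78 CPM, and EP09 had 7.52 CPM where the next p63alpha library had 4.27 CPM. For Loxl3, EP10 had 1.51 CPM where the next p63beta library had 0.980 CPM. The groups of 3 keratinocyte libraries are too small for this criterion.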

How the results depend on the processing

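Across alternatives, 127 of the member values in keratinocytes, 112 in epidermis and 36 in the interaction kept their direction and their side of the threshold. Another 12, 15 and 4 uncalled values changed sign, and DESeq2 called P4ha1 in keratinocytes. DESeq2 called 216 genes and 1 member in keratinocytes and 155 genes in epidermis, against 14 and 32 in edgeR. No other setting called a member, and the interaction had 0 calls under every alternative run. The 0 calls among transcript shares say nothing of stability, since the smallest p of 0.0286 would have to be reached by most of the 9980 shares before any could be called.

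The replicate block called 37 genes in keratinocytes and changed no member's call. Its fit without pair 3 called 1 gene and gave 0.67 for Loxl1, -0.17 for Loxl2 and 0.37 for Loxl3, and leaving out both libraries numbered 3 without a block, chosen after seeing the data, called 0 genes and gave 0.70, -0.12 and 0.41, all as log2 fold changes. Across single libraries left out, keratinocyte calls ranged over 1 to 4, Lox over -0.10 to 0.72, Loxl1 over -3.31 to 1.25, Loxl3 over -0.46 to 0.34 and Plod1 over -0.12 to 0.45. In epidermis, calls ranged over 10 to 28, Lox over -0.75 to 0.47, Loxl2 over -0.023 to 1.01 and Plod1 over -0.30 to 0.12. Without p63beta 3 the interaction was 2.58 for Loxl1, 0.20 for Loxl2 and 0.29 for Loxl3, against 2.04, -0.10 and 0.37 with all libraries. Without p63alpha 3, chosen after seeing the data, the interaction was -1.92 for Loxl1, 0.11 for Loxl2 and -0.11 for Loxl3.

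Plod1 in epidermis was -0.13 in limma with either pseudocount and -0.048 with the column-name prefix as a term. The 6 libraries of 1 prefix alone gave 8 calls, -0.077 for Loxl2 and -0.44 for Plod1. Without WT3, KO2 and EP12, also chosen after seeing the data, Loxl2 was -0.26, Plod1 -0.54, Plod2 -0.039, P4ha1 -0.013 and P4ha2 -0.16. No paired analysis was possible in epidermis because its columns carry no replicate numbers shared between genotypes. The causes of these shifts were not tested. Depth limits the lysyl oxidases in epidermis, where Lox, Loxl1 and Loxl4 had at most 20 estimated reads in any library.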
